A study of Homo sapiens and Mus musculus with 36 samples.

Results

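The genes described here are 38 members of the HOX clusters, taken by symbol from each of 13 deposited comparison tables and, for the mouse line, by the same symbols in mouse letter case. They are 38 of the 43579 gene symbols found in any table, with human and mouse spellings counted apart. By cluster they are 10 HOXA, 10 HOXB, 9 HOXC and 9 HOXD genes. A row in at least 1 table was found for 33 of them, and none for HOXB1, HOXB8, HOXB9, HOXD9 and HOXD12.

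HOX genes encode homeodomain transcription factors that give cells their position along the body axis, and the genes sit in each cluster in the order of the body regions they specify. Polycomb repressive complex 2, whose catalytic subunit is EZH2, places the trimethyl mark on histone H3 that keeps unused HOX genes silent, while trithorax group methyltransferases such as KMT2A keep used ones on. Because of this, HOX clusters are a textbook readout of Polycomb activity, and adult tissues and cell lines keep a partial, lineage-bound HOX pattern.

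The series held 36 RNA-seq libraries in 18 groups of 2 libraries each. HepG2 and Huh7 are human liver cancer lines, and WEHI-231 is a mouse B cell lymphoma line. HepG2 was exposed for 48 h to DMSO or to 5 uM of MS7126 (a PROTAC, a molecule built to send EZH2 for degradation), C24 (the matched inhibitor of the EZH2 catalytic domain), MS7126N1 or MS7126N2 (analog controls that are not PROTACs). Huh7 received DMSO or 5 uM MS7126 for 24 h by its own labels, while another label of the series gives 48 h for both lines. WEHI-231 was kept for 16 h in DMSO or in 1 uM of MS8815 (an EZH2 PROTAC), EPZ-6438 (the matched catalytic inhibitor) or MS8815N (its non-PROTAC analog). Hairpins against EZH2 (in HepG2 and Huh7) or SREBP2 (hairpins 664, 665 and 667, in HepG2) were delivered in the pLKO.1 lentivirus with puromycin selection, and their control is called an empty vector in one label and a scramble in another. No label calls the 2 libraries of a group separate cultures, and p-values therefore measure only the spread between libraries, which may be technical. In bulk RNA, fewer cells of a type and less RNA per cell cannot be told apart.

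A check of the targets and lines came first. EZH2 fell in the Huh7 shEZH2 libraries, from 927 and 898 counts in the controls to 151 and 168 (edgeR log2 fold change -2.65, SE 0.08, adjusted p = 3.03e-13). In HepG2 the libraries labelled shEZH2 had on average more EZH2 RNA than their control in the authors' deposited table (log2 fold change 0.90, SE 0.38, adjusted p = 0.0337). That label goes against its target, and no direction is drawn from it. The SE was wide for a mean of 1225 normalized counts, since HOXA3, at a mean of 725, had an SE of 0.12 there. Without values per library it cannot be said whether both libraries were higher. SREBF2, which encodes SREBP2, was lower with each of the 3 hairpins in the authors' deposited tables. The log2 fold changes were -1.58 (SE 0.06) with 664, -1.08 (SE 0.12) with 665 and -2.35 (SE 0.42) with 667. EZH2 RNA does not test the degraders, which act on the protein. All 12 hepatocyte markers had rows in the tables of both liver lines and all 8 B cell markers in those of WEHI-231, where 1 hepatocyte marker was listed, at a control level near 4 normalized counts.

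The 4 clusters lie on 4 chromosomes (GRCh38, GENCODE 29, spans over the members): HOXA on chromosome 7 from 27100354 to 27200106 on the minus strand, HOXB on chromosome 17 from 48528526 to 48729178 on the minus strand, HOXC on chromosome 12 from 53938765 to 54056030 and HOXD on chromosome 2 from 176092891 to 176190907, both on the plus strand. Upstream sequences were found for 20 of the 38 members in RefSeq's promoter table (GRCh38.p14); HOXA5, HOXB2 to HOXB9, HOXB13, HOXC6, HOXC8 to HOXC13 and HOXD9 had no entry. Polycomb targets of this kind typically start in CpG islands, so the stretches before 4 members are shown with every CG dinucleotide in capitals: HOXA3 and HOXD1, which rose after EZH2 knockdown in Huh7 in every test run, HOXA13, which rose by edgeR alone, and HOXC4, which was not called. Each runs 5′ to 3′ and ends before the GENCODE start of its gene. Their positions are chr7:27152584-27152833 (HOXA3, minus strand), chr7:27200107-27200341 (HOXA13, minus strand), chr12:54016638-54016887 (HOXC4, plus strand) and chr2:176188418-176188578 (HOXD1, plus strand).
HOXA3: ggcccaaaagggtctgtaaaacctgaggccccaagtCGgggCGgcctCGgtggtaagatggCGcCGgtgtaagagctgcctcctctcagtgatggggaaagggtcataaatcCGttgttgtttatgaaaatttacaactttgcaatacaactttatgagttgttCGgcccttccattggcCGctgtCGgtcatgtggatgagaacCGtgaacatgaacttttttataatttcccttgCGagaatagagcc
HOXA13: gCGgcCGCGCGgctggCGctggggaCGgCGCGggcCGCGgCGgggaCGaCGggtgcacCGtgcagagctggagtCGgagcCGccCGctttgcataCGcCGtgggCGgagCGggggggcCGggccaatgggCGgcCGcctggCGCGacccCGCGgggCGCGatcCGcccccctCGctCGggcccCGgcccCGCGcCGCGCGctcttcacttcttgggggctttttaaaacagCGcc
HOXC4: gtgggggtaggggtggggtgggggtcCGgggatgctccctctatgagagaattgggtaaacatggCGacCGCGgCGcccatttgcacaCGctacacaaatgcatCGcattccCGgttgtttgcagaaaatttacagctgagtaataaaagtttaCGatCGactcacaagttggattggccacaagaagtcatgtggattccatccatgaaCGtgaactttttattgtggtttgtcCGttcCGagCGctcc
HOXD1: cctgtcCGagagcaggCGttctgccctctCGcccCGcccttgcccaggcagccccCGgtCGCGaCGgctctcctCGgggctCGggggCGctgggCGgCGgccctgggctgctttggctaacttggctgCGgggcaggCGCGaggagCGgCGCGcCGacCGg
The stretch before HOXA13 held 40 CG in 235 bases and that before HOXD1 held 21 in 161, against 14 in 250 bases for HOXC4 and 11 in 250 for HOXA3. In the 250 bases before the RefSeq start, the 20 members had a median of 20.5 CG (4 to 40), and a median of 11 was found over 35116 promoters of the same length. The ratio of observed to expected CG was above 0.6 in 18 of 20 members (90.0%), against 47.5% of all promoters. The motif CCAAT, on either strand, was present in 17 of 20 (85.0%) against 32.0%, and GGGCGG, on either strand, in 10 of 20 against 42.6%. HOXC4 and HOXC5 share 1 annotated start, so these counts hold that window 2 times. The matches describe letters in these windows and do not show that a factor binds.

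The HOX genes listed differed between lines. HepG2 had rows for 19 of the 38 members (10 HOXA, 4 HOXB, 4 HOXC and 1 HOXD), Huh7 for 24 (10, 1, 9 and 4) and WEHI-231 for 21 (8, 4, 4 and 5). These counts pool 8, 2 and 3 tables, and members with a row in every table of the line were 8 in HepG2, 16 in Huh7 and 17 in WEHI-231. At a mean of at least 10 normalized counts in any table, 11 members were left in HepG2, 18 in Huh7 and 13 in WEHI-231. No HOXB gene reached that mean in any line. Rows under a mean of about 2 are missing from every table, and a member without a row was not measured as 0. A missing row does not by itself show a low level. HOXA13 had a mean of 36.8 normalized counts in the Huh7 hairpin comparison and no row for MS7126 in Huh7. The 8 members with a row in all 3 lines were HOXA genes: HOXA2, HOXA3, HOXA4, HOXA5, HOXA6, HOXA7, HOXA9 and HOXA13.

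In HepG2 the members with a mean of at least 100 in some table were HOXA3, HOXA4, HOXA5, HOXA7, HOXC9 and HOXD1. Levels were compared between genes as CPM (counts scaled to a common library total) per kb of exon, rebuilt from the authors' deposited means and fold changes. In the HepG2 hairpin control HOXA4 was at 6.74, HOXA3 at 5.68, HOXA5 at 3.16 and HOXD1 at 3.05 on this scale, and the only HOXC gene past a mean of 10, HOXC9, was at 0.987. The HepG2 DMSO control ranked them differently, with HOXD1 at 8.80, HOXA5 at 3.11, HOXA4 at 3.08, HOXA3 at 1.56 and HOXC9 at 1.04. The HOXD1 value of 8.80 is uncertain. It comes from a DMSO level of 308 normalized counts rebuilt from the MS7126 comparison, and the MS7126N1 comparison, with the same DMSO libraries, gave 161. The tables were normalized separately and the 2 sets of controls come from different experiments, so the difference between them is given as values only.

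Huh7 had HOXA genes and, unlike HepG2 at a mean of 10, most of HOXC. Its hairpin controls are the only ones with values per library. HOXC10, a posterior gene used in lumbar motor neurons, was at 30.6 and 31.6 CPM per kb there. HOXD1 followed at 9.39 and 10.4, and HOXA5, a gene of lung and airway patterning, at 5.74 and 5.91. HOXC10 and HOXD1 thus stood apart from each other and from the rest beyond the spread of the libraries. Further down, HOXA3 (5.36 and 5.73) and HOXC13 (5.11 and 5.37), a hair follicle regulator, overlapped, as did HOXC9 (3.33 and 4.09) and HOXA7 (3.35 and 3.73). HOXD3 and HOXD4 were near 0, with 0 and 3 counts and 2 and 0 counts in the 2 control libraries. In the Huh7 DMSO control the order of the top gene was the same, with HOXC10 at 23.8 CPM per kb, but HOXD1 was at 1.29.

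**Figure D1:**
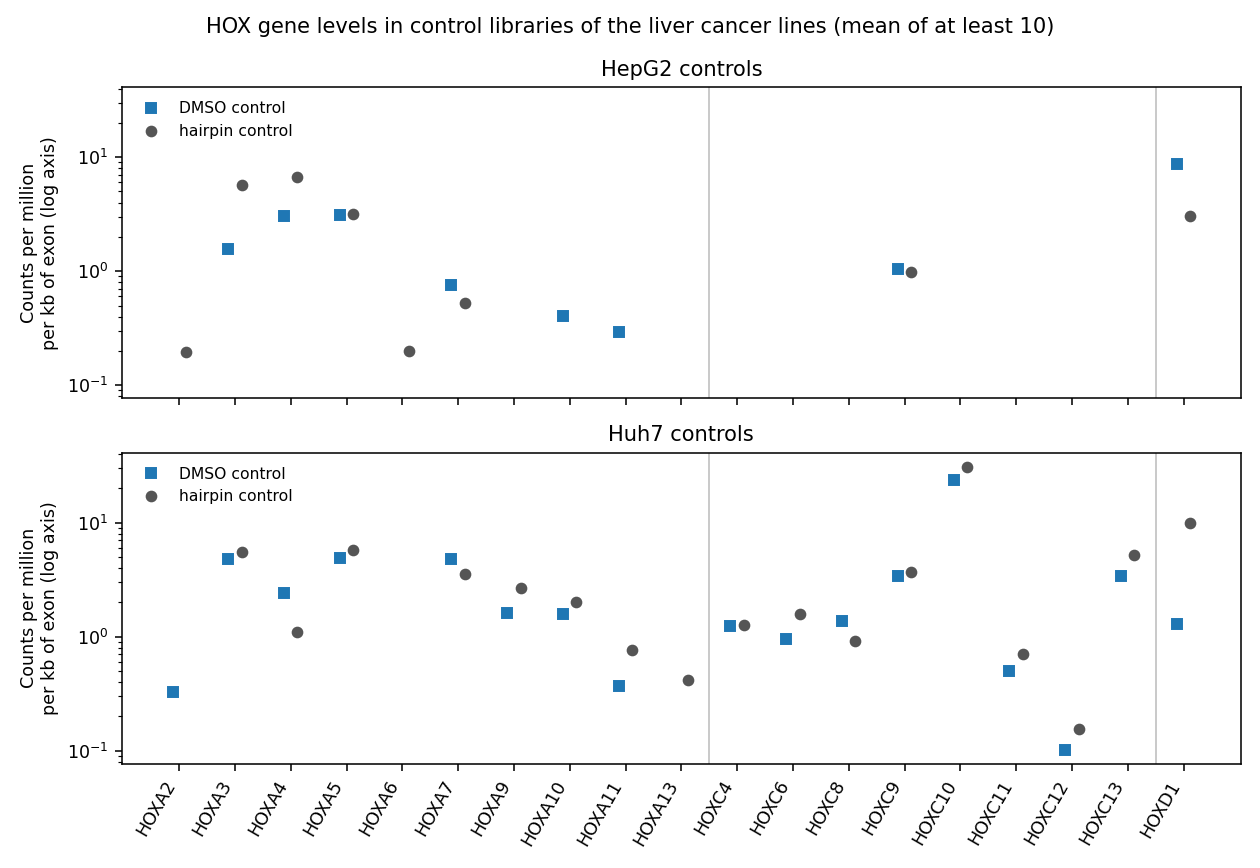
Levels of HOX genes in the control libraries of HepG2 (top) and Huh7 (bottom), in CPM per kb of exon on a log axis, rebuilt from the deposited means and fold changes; squares are DMSO controls, circles hairpin controls, and members under a mean of 10 are left out. In Huh7 HOXC10 lies highest (23.8 and 30.8), in HepG2 1 HOXC gene is plotted (HOXC9, at 1.04 and 0.987), and no HOXB gene appears.

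Taking the median over members past a mean of 10, HOXA was at 1.84 and HOXC at 0.987 CPM per kb in the HepG2 hairpin control, and at 2.34 and 1.42 in the Huh7 hairpin control. In the DMSO controls the 2 medians were 1.16 and 1.04 in HepG2 and 2.01 and 1.30 in Huh7. The order of the 2 clusters in Huh7 turned when levels were summed instead, to 21.8 for HOXA and 44.3 for HOXC in the hairpin control, of which HOXC10 gave 30.8. It also turned in the HepG2 hairpin control when that control was read from the hairpin 664 table (0.526 for HOXA and 0.988 for HOXC), where HOXA13 also passed a mean of 10.

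Knockdown of EZH2 in Huh7 raised HOX genes of 3 clusters. Of 19 members in that table, 18 passed the low-count filter of edgeR, and 12 were called higher and 1 lower at an adjusted p under 0.05, where 38.7% of 14581 genes were called (19.5% higher and 19.3% lower). The median log2 fold change was 0.63 over the 18 members and 0.000128 over all genes tested. HOXC12 and HOXD4 passed the filter only through the shEZH2 libraries and so had to differ, and over the other 16 members the median was 0.42, with 10 higher and 1 lower. By cluster, 6 of 8 HOXA genes were higher and 1 lower, 4 of 8 HOXC genes were higher, and 2 of 2 HOXD genes were higher. No HOXB gene had a row. The HOXC and HOXD counts include HOXC12 and HOXD4. Without them the HOXC genes called were HOXC6, HOXC8 and HOXC11, and HOXD rested on HOXD1 alone. The authors' deposited table, which gives an adjusted p to 17 members, calls 6 of them higher and 0 lower, where it calls 23.4% of genes (11.6% higher). Those 6 are HOXA3, HOXC6, HOXC8, HOXC11, HOXC12 and HOXD1. HOXC12, with 4 and 7 counts in the controls, may have an adjusted p there only through the shEZH2 libraries. HOXD4 and HOXD3, with means of 7.14 and 5.56, have none, so the HOXC12 call adds no support.

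The largest rises among well-counted members were in the middle of HOXC and at HOXD1. HOXC6, a gene of the forelimb and thoracic level (chromosome 12, 53990624 to 54030823), had 70 and 50 counts in the control libraries and 224 and 221 in the shEZH2 libraries. Both knockdown libraries were above both controls by a wide margin, and the rise on the log2 scale was 1.75 (SE 0.14, edgeR adjusted p = 4.07e-08). HOXD1, the anterior end of HOXD (chromosome 2, 176188579 to 176190907), went from 208 and 206 counts to 715 and 724. The log2 rise was 1.66 (SE 0.08, by edgeR with an adjusted p of 7.35e-11), and the 2 libraries of each group lay close together. In CPM the means were 19.6 ± 1.43 (SD, n = 2) and 61.6 ± 1.99 (SD, n = 2).

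HOXC8, a gene of brachial motor neurons, had 22 and 15 counts in the controls and 59 and 56 after knockdown, with 1.5 as the log2 fold change (SE 0.27, edgeR adjusted p = 0.000396). HOXC11, a posterior gene, had 28 and 21 counts against 60 and 100 (1.56, SE 0.27, edgeR adjusted p = 0.000212). Its 2 knockdown libraries differed from each other but both exceeded the controls. HOXC12, its neighbour, had 4 and 7 counts against 33 and 34, which gave 2.44 on the log2 scale (SE 0.43, edgeR adjusted p = 0.000298). HOTAIR, the noncoding RNA made antisense between HOXC11 and HOXC12, was also higher (0.84, SE 0.25, edgeR adjusted p = 0.0145), and the authors' deposited table gives it an adjusted p of 0.141.

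HOXC10 lies between HOXC11, which rose, and HOXC9, which was not called, and it did not rise with HOXC11. It had 800 and 738 counts in the controls and 802 and 869 after knockdown, and its groups overlapped in CPM (log2 fold change -0.02, SE 0.05). HOXC10 overlaps HOXC-AS3 on the other strand. HOXC4 had 38 and 36 counts against 34 and 42 (-0.10, SE 0.25), HOXC9 77 and 56 against 84 and 93 (0.28, SE 0.17) and HOXC13 146 and 124 against 168 and 185 (0.25, SE 0.11), and none of the 3 was called. HOXC9 and HOXC13 were higher in both knockdown libraries, as were 34.1% of the genes tested.

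HOXD4 and HOXD3 were nearly silent in the controls. HOXD4, a hindbrain gene, went from 2 and 0 counts to 13 and 15 (edgeR adjusted p = 0.00224), and its fitted log2 fold change of 3.52 (SE 0.80) depends on how counts near 0 are treated: it was 6.75 without shControl library 1 and 2.67 without shControl library 2. HOXD3 had 0 and 3 counts in the controls and 8 and 12 after knockdown and did not pass the filter. Tested without the filter it was at 2.49 and not called (edgeR adjusted p = 0.0698), and with 1 library left out it passed the filter in 3 of 4 fits and was called in 1, without shControl library 2 (edgeR adjusted p = 0.022). The authors' deposited table gives neither an adjusted p. HAGLR, the noncoding RNA antisense to HOXD1, rose by less than HOXD1 did (0.26, SE 0.04, edgeR adjusted p = 3.19e-05).

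Changes in HOXA were smaller. HOXA3, which patterns the pharyngeal arches, rose from 277 and 231 counts to 362 and 366 (log2 fold change 0.38, SE 0.08, edgeR adjusted p = 0.00144). HOXA11, needed for uterus and forearm development, was at 23 and 15 counts against 36 and 63 (1.24, SE 0.32, edgeR adjusted p = 0.00593). HOXA13, a digit and genital tract gene, had 24 and 21 counts against 55 and 50 (1.08, SE 0.26, edgeR adjusted p = 0.00387). Its group means were 2.12 ± 0.03 (SD, n = 2) and 4.50 ± 0.49 (SD, n = 2) CPM, with no overlap.

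HOXA10 had 78 and 81 counts against 127 and 114 (0.46, SE 0.15, edgeR adjusted p = 0.025), HOXA7 101 and 81 against 124 and 135 (0.37, SE 0.13, edgeR adjusted p = 0.0391) and HOXA4 20 and 21 against 34 and 45 (0.80, SE 0.30, edgeR adjusted p = 0.0441). HOXA9, the leukaemia-linked member, had 99 and 75 against 103 and 133 and was not called (0.30, SE 0.15). HOXA5 moved the other way, from 110 and 101 counts to 76 and 74 (-0.63, SE 0.15, edgeR adjusted p = 0.00351), and both knockdown libraries were below both controls. HOXA4, HOXA5, HOXA7, HOXA10, HOXA11 and HOXA13 have adjusted p-values of 0.0516 to 0.287 in the authors' deposited table and are not called there. Leaving out 1 library ended the edgeR call of HOXA4 and HOXA7 whichever library it was. For HOXA10 the call ended without control library 1 or shEZH2 library 1, and for HOXA11 without control library 2 or shEZH2 library 2.

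**Figure D2:**
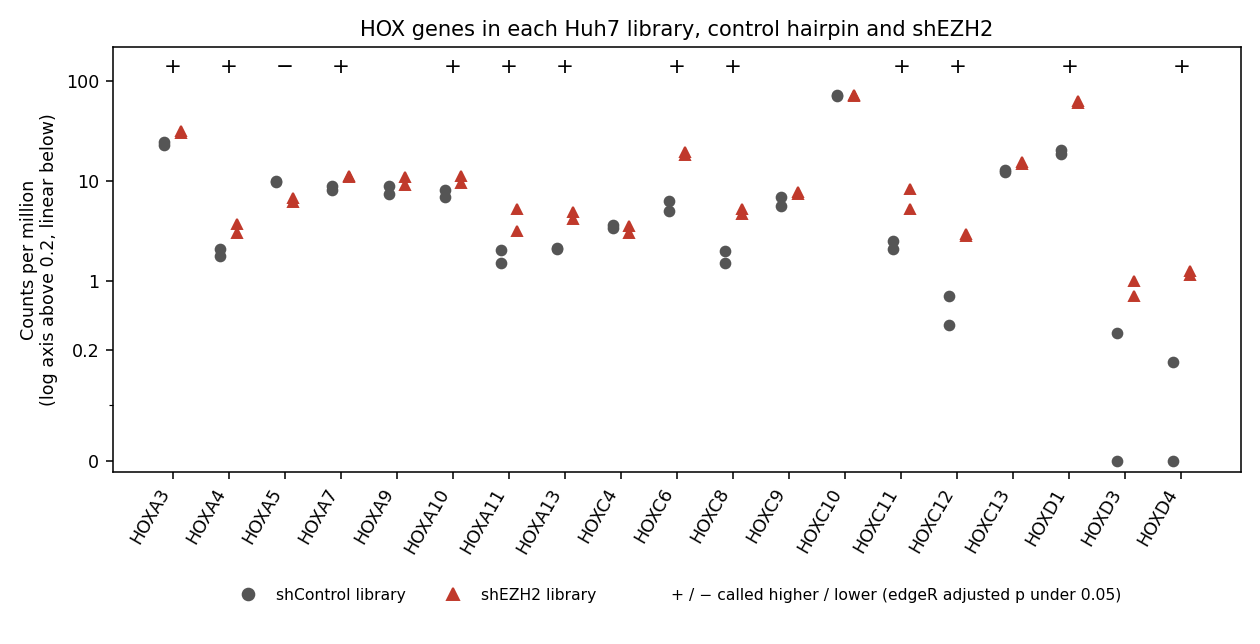
CPM of each HOX gene in the 2 shControl (circles) and 2 shEZH2 (triangles) libraries of Huh7, on an axis that is logarithmic above 0.2 and linear below, with plus and minus signs for genes called higher or lower by edgeR. HOXC6 and HOXD1 show the widest separation among genes above 5 CPM, HOXC10 does not separate, and HOXD3 and HOXD4 start at or near 0.

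Several members share transcribed sequence with others, and the strand setting of the counting is not given in the sources used here. HOXC4, HOXC5 and HOXC6 share exons, HOXC6 overlaps HOXC9 on the same strand and HOXC-AS2 on the other, HOXA9 and HOXA10 overlap a readthrough transcript and HOXA10-AS, HOXA3 overlaps HOXA-AS2 and HOXA-AS3, and HOXD1 overlaps HAGLR. Reads could be split or swapped among these, so their separate values are uncertain. HOXC8, HOXC11 and HOXC12 share no exon with another annotated gene, though HOXC8 lies within the span of HOXC6.

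Markers of other cells moved in the same comparison. Of 13 such markers 5 were tested, and 3 were higher and 1 lower by edgeR, where 19.5% of all genes were higher and 19.3% lower. COL1A2 rose from 5.83 to 49.5 CPM, PDGFRB from 4.71 to 8.61 and CD68 from 3.95 to 7.74, while PECAM1 fell from 5.61 to 2.24. The T cell markers had no row. Of 12 hepatocyte markers 8 were lower and 2 higher by edgeR, against the same shares. AFP had a log2 fold change of -0.74 and ALB one of -0.53, while TTR, called higher, was at 0.66. Their part in the HOX changes was not tested.

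The other genes of the HOX system moved as follows in the Huh7 knockdown. Among the HOX cofactors, the TALE homeodomain proteins that bind DNA together with HOX factors, PBX3 (0.54, SE 0.10) and PBX2 (0.30, SE 0.06) were higher, with edgeR adjusted p-values of 0.000558 and 0.00107. Of 18 noncoding RNAs of the clusters 7 were tested and 3 were higher, where 19.5% of all genes were. They were HAGLR, HOTAIR and HAGLROS (1.69, SE 0.52, edgeR adjusted p = 0.017). HAGLROS, at 0.462 CPM in the controls, passed the filter through the shEZH2 libraries, and the authors' deposited table calls HAGLR alone of this list. Of 13 genes that flank the clusters 6 were tested and 1 was higher, where 19.5% of all genes were. It was MTX2 beside HOXD, by 0.19 (SE 0.07, edgeR adjusted p = 0.0497). CALCOCO1 beside HOXC was at 0.21 (SE 0.09, edgeR adjusted p = 0.0736) and not called. SKAP2 and HIBADH beside HOXA and CBX5 and SMUG1 beside HOXC had log2 fold changes of -0.06 to 0.04.

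Both tested ParaHox genes, the sister family of HOX, were called in opposite directions: CDX2, an intestinal regulator, at 1.26 (SE 0.05) and PDX1, a pancreatic one, at -1.0 (SE 0.09). Of 16 trithorax and demethylase genes, 6 were higher and 1 lower by edgeR, where 19.5% of all genes were higher and 19.3% lower. MLLT3 was at 0.98, KDM6B, which removes the EZH2 mark, at 0.53, KMT2A at 0.51 and MLLT1 at -0.28. Retinoic acid is the classic inducer of HOX genes, and of its 7 receptor and catabolism genes 2 were higher and 2 lower by edgeR (19.5% and 19.3% over all genes), and 1 higher and 2 lower in the authors' deposited table. Among these RXRA was at -1.12, CYP26A1 at -1.53 and CYP26B1 at 0.59.

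MS7126 in Huh7 gave 4 HOX calls, a share below that of all genes. The authors' deposited table lists 21 members and gives an adjusted p to 17, of which 1 is called higher and 3 lower, where 33.9% of genes are called (17.5% higher and 16.3% lower). The median log2 fold change over the 17 members past a mean of 10 is -0.60 there, with 3 above 0, against -0.01 over all such rows of the authors' deposited table. HOXC10, the highest HOX gene of the line (mean of 816 normalized counts), is at -1.44 on the log2 scale (SE 0.17, adjusted p = 3.17e-15) in the authors' deposited table. HOXA5 is at -1.19 (SE 0.38, adjusted p = 0.00825) and HOXC9, a thoracic motor neuron gene, at -1.06 (SE 0.40, adjusted p = 0.0261) in the same authors' deposited table. HOXC12 is the member called higher in the authors' deposited table, from a rebuilt level of 7.3 normalized counts (log2 fold change 3.25, SE 0.72, adjusted p = 5.61e-05).

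The uncalled members past a mean of 100 in the authors' deposited table were HOXA3 (-0.25, SE 0.26), HOXA7 (-0.62, SE 0.35), HOXA9 (-0.15, SE 0.45), HOXA10 (-0.42, SE 0.36) and HOXC13 (-0.52, SE 0.31). HOXC6 (-0.92, SE 0.53) and HOXD1 (-0.71, SE 0.61), which rose with the hairpin, were below 0 and not called in the authors' deposited table for MS7126. The other 10 members with a row, none called, had means of 3.98 to 74.5.

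The noncoding RNAs HOXA-AS2 (-1.58, SE 0.36) and HOTAIRM1 (-1.77, SE 0.73) of the HOXA cluster were called lower in the authors' deposited table as well, 2 of 12 cluster RNAs listed, and none was called higher. Both ParaHox genes listed there were called lower, PDX1 at -2.58 and CDX2 at -1.69 in the authors' deposited table. Of the cofactors PKNOX1 was called higher (0.55) and PBX3 lower (-1.02), and of the 16 trithorax and demethylase genes 7 were called higher, among them KDM6A (1.09), and 2 lower, by the authors' deposited table, where 17.5% and 16.3% of all genes were. Hepatocyte markers moved with them, 8 of 12 called lower and none higher in the authors' deposited table, with SERPINA1 at -1.05 and ALB at -0.92. Of 8 listed markers of other cells COL1A1 was called higher (2.36) and PECAM1 lower (-0.89) in the authors' deposited table, and their part in the HOX values was not tested.

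Each HOX log2 fold change under MS7126 was then set against that of the hairpin, in a test added after the values were seen, with a normal test on the difference and its SE and adjustment over all genes of the pair. The 2 comparisons have separate controls and separately normalized tables. Of 16 members in both of the authors' deposited tables, 5 differed, each lower under MS7126, and none was higher, where 31.7% of 14547 genes differed, so the share of members is near that of all genes. The differences, MS7126 minus shEZH2 in the authors' deposited tables, were -2.68 for HOXC6 (95% interval -3.82 to -1.54), -2.36 for HOXD1 (-3.59 to -1.14) and -1.98 for HOXC11 (-3.55 to -0.42). For HOXC10 the difference was -1.42 (-1.80 to -1.04) and for HOXC9 -1.34 (-2.30 to -0.38), again from the authors' deposited tables. HOXC12, higher in both, had a difference of 0.79 with a 95% interval of -1.23 to 2.81. Treatment (a compound for 24 h against a selected hairpin) and experiment cannot be told apart in these differences.

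**Figure D3:**
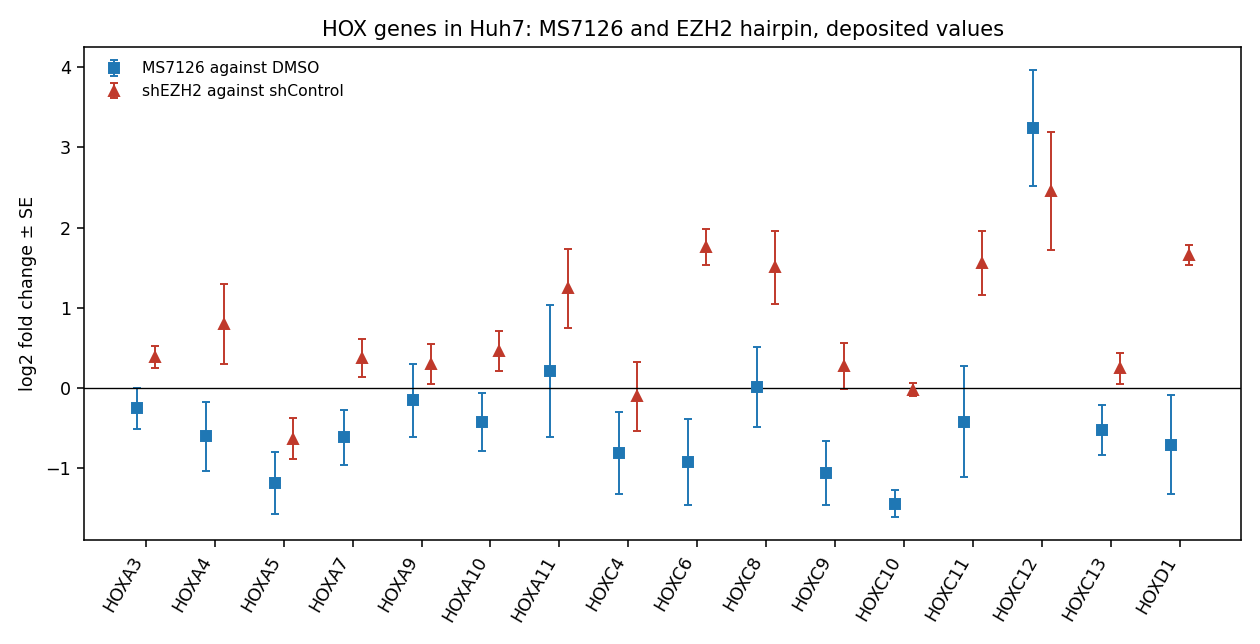
Deposited log2 fold changes (± SE) in Huh7 of HOX genes past a mean of 10 in both tables, in cluster order, for MS7126 against DMSO (squares) and shEZH2 against shControl (triangles). The squares lie below the triangles for every gene but HOXC12 (3.25 and 2.46), and the gap is widest at HOXC6 and HOXD1.

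In HepG2 the HOX calls with the compounds stayed near the share of all genes, and with C24 none could be made. MS7126 has 16 members in the authors' deposited table, 7 with an adjusted p, and 1 is called, HOXD1, lower (log2 fold change -5.89, SE 2.04, adjusted p = 0.0295), where 15.5% of genes are called, 8.06% lower. The others past a mean of 10 in the authors' deposited table range from -0.88 (HOXA5, SE 0.47) to 0.41 (HOXA10, SE 1.06). C24 lists 16 members with no adjusted p for any, and so with 0 called, where 7.02% of genes are called in the authors' deposited table. MS7126N1 calls 0 of 15 (0.159% of genes) and MS7126N2 0 of 8 with an adjusted p (0.703% of genes) in the authors' deposited tables. An unadjusted p under 0.05 was found for 1 member each with MS7126, C24 and MS7126N2 and for none with MS7126N1, and the member was HOXD1 each time.

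The HOXD1 value rests on an unusually wide spread. On the log2 scale the authors' deposited tables give -5.89 with MS7126, -3.97 with C24 (SE 1.99), -1.87 with MS7126N1 (SE 2.29) and -5.39 with MS7126N2 (SE 2.06), all against the same 2 DMSO libraries. These SEs are 5.46 to 5.90 times the median SE of the 200 rows nearest in mean, while for HOXA3, of like mean, the ratio is 0.988 to 1.13. The rebuilt DMSO level of HOXD1 is 308 normalized counts in the MS7126 table but 161 in the MS7126N1 table, although both hold the same libraries, so its fold changes are uncertain. HAGLR, its antisense neighbour, is called lower with MS7126 (-1.45, SE 0.41) and not with the other 3 compounds in the authors' deposited tables. Hepatocyte markers were called lower with MS7126 for 6 of 12 and COL1A1 was at -0.52 in the authors' deposited table, and their part was not tested.

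The shEZH2-labelled HepG2 libraries had 8 members in the authors' deposited table, and 3 were called where 57% of genes were called (28.4% higher and 28.6% lower). HOXA7 (1.22, SE 0.42, adjusted p = 0.0075) and HOXC9 (1.03, SE 0.36, adjusted p = 0.00762) were higher and HOXA4 was lower (-1.27, SE 0.21, adjusted p = 9.05e-09) in the authors' deposited table. HOXA3, the most abundant member (mean of 725), was at 0.16 (SE 0.12) and HOXD1 at 0.35 (SE 0.22) in the authors' deposited table, neither called. The share of members called was below that of all genes. Of the 6 members also listed for the Huh7 hairpin in the authors' deposited tables, 3 differed between the lines, where 51.5% of genes did. Of the other-cell markers COL1A1 (-3.54) and CD68 (-1.03) were lower and PDGFRB (0.59) higher in the authors' deposited table. Hepatocyte markers were called higher for 8 of 12 and lower for 3 there, and the part of either list was not tested.

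The SREBP2 hairpins, which share the same control libraries, gave HOX calls in 2 of 3 cases. Hepatocyte markers moved in the same authors' deposited tables, with 9 of 12 called higher and 2 lower for 664, 4 and 5 for 665, and 7 and 3 for 667. COL1A1 was called lower in each (-2.70, -1.14 and -1.61), CD68 was called higher with 664 (1.16) and lower with 665 (-1.20), PDGFRB was called lower with 664 (-0.47) and higher with 665 (0.59) and 667 (1.29) in the authors' deposited tables, and their part was not tested. Hairpin 664 had 2 of 10 members called, both higher, where 51.7% of genes were called (24.9% higher) in the authors' deposited table: HOXA5 at 1.30 (SE 0.16, adjusted p = 1.43e-15) and HOXD1 at 0.51 (SE 0.17, adjusted p = 0.00751). Hairpin 665 had 4 of 9, all higher, where 38.8% were called (18.7% higher) in the authors' deposited table. They were HOXA7 (2.26, SE 0.31, adjusted p = 7.69e-12), HOXA10 (2.75, SE 0.84, adjusted p = 0.00421), HOXC9 (1.59, SE 0.30, adjusted p = 2.02e-06) and HOXA5 (0.60, SE 0.23, adjusted p = 0.0277) in the authors' deposited table.

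Hairpin 667 had 0 of 10 called, where 37.8% of genes were called, and 2 members (HOXA5 and HOXC9) with an unadjusted p under 0.05 in the authors' deposited table. HOXA3 stayed within 0.20 of 0 on the log2 scale with all 3 hairpins (-0.20 to 0.19, SE 0.10 to 0.14) in the authors' deposited tables. HOXA7 shows how far the hairpins against 1 target lay apart, at -0.02 (SE 0.42), 2.26 and 0.56 (SE 0.44) with 664, 665 and 667 in the authors' deposited tables. The cofactor PBX3 was called lower in each of these 3 tables and in that of the libraries labelled shEZH2, at -0.98 to -0.66, all against the same controls, in the authors' deposited tables.

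**Figure D4:**
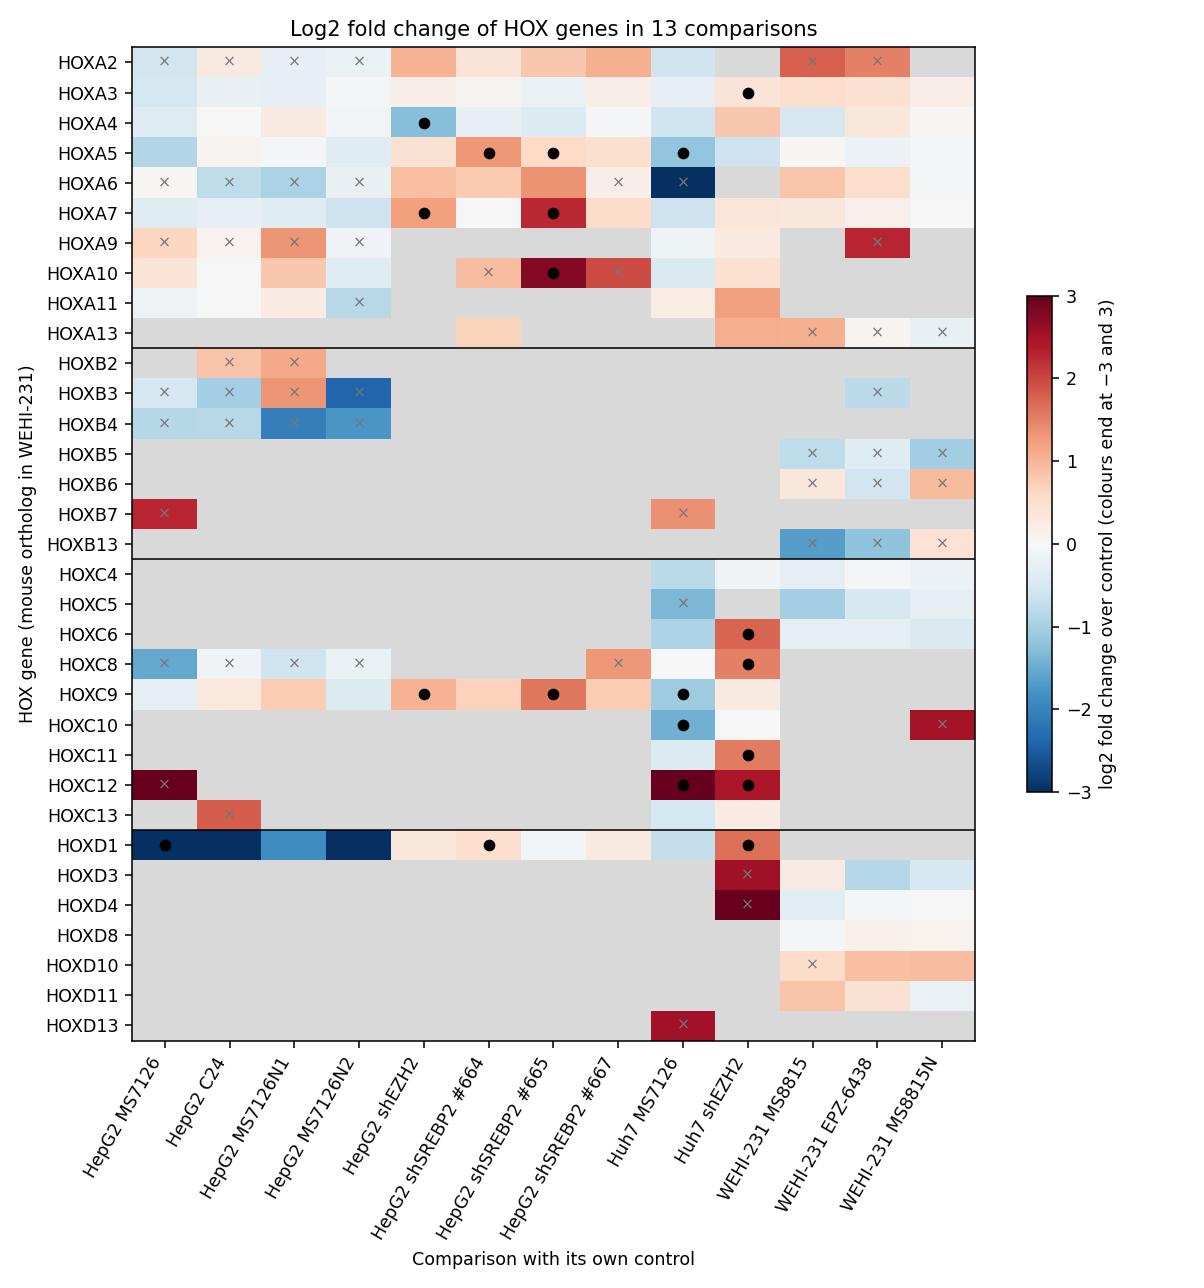
Deposited log2 fold changes of the 33 HOX genes with a row, by cluster (rows), in the 13 comparisons (columns); red is higher and blue lower than control, colours end at -3 and 3, grey marks no row, a cross a mean under 10 and a black dot an authors' adjusted p under 0.05. Called cells lie in HOXA, HOXC and HOXD1 of the liver lines, none in HOXB and none in WEHI-231.

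In the mouse line no Hox gene was called with any of the 3 compounds. The authors' deposited tables list 18 members with MS8815, 20 with EPZ-6438 and 18 with MS8815N and call 0 in each, where they call 17.1%, 0.243% and 0.119% of genes. With MS8815 an adjusted p is given to 7 of the 18, and 2 members, Hoxc4 and Hoxd4, have an unadjusted p under 0.05 in the authors' deposited table, against none with EPZ-6438 or MS8815N. Hoxc4, which is expressed in activated B cells, was the most abundant with a mean of 955 normalized counts, and it was at -0.27 on the log2 scale (SE 0.12, adjusted p = 0.106) in the authors' deposited table for MS8815. Hoxd4 (mean of 516) was at -0.35 (SE 0.16, adjusted p = 0.11), Hoxd8 (mean of 381) at -0.06 (SE 0.19) and Hoxa7 (mean of 304) at 0.34 (SE 0.21, adjusted p = 0.297) in the same authors' deposited table.

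With EPZ-6438 these 4 genes lay between -0.06 and 0.16 and with MS8815N between -0.16 and 0.11 in the authors' deposited tables. The remaining members had means of 2.4 to 70.9. Lengths of mouse genes were not used here, so levels are not compared between these genes per kb. The B cell markers Cd79a, Cd79b, Cd22 and Ighm were called lower with MS8815 in the authors' deposited table, 4 of 8, and their part was not tested. No HOX cofactor was called with any of the 3 compounds, 6 being listed in each of the authors' deposited tables.

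**Figure D5:**
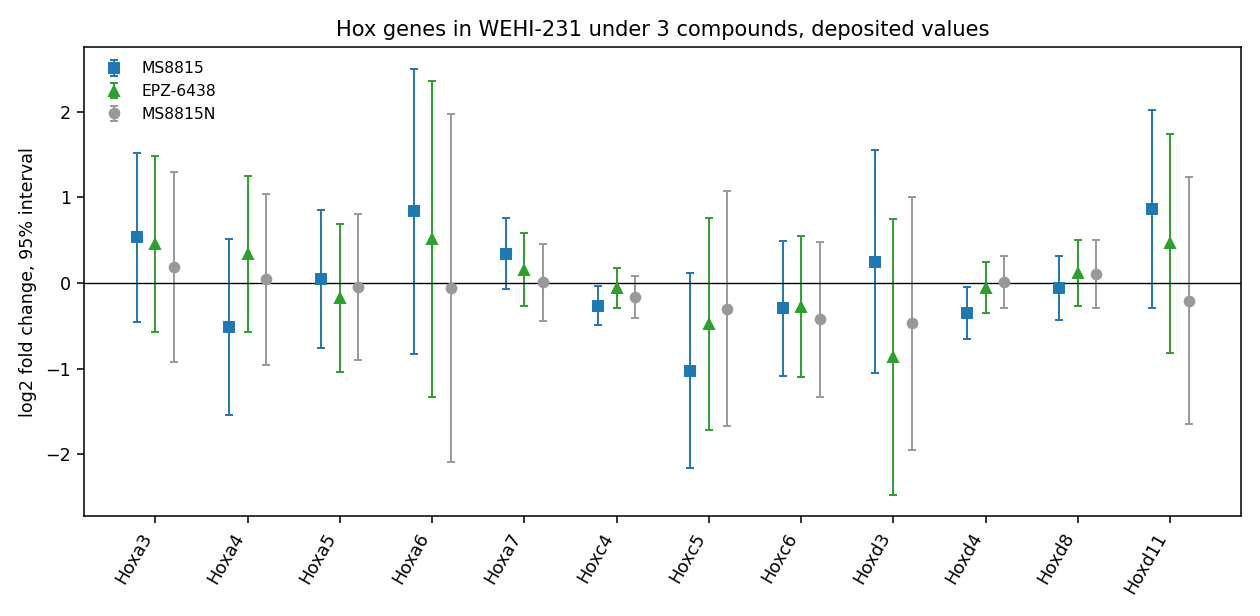
Deposited log2 fold changes with 95% intervals of the 12 Hox genes past a mean of 10 in all 3 WEHI-231 tables, for MS8815 (squares), EPZ-6438 (triangles) and MS8815N (circles) against the same DMSO libraries. Intervals are narrow for Hoxc4, Hoxd4, Hoxd8 and Hoxa7 and wide for the rest, and only those of Hoxc4 and Hoxd4 with MS8815 stay below 0.

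Related compounds of equal dose and exposure were set against each other in 5 pairs, with p-values adjusted over all genes of all 5 pairs together. No HOX member differed in any pair of the authors' deposited tables: 0 of 14 for MS7126 against C24 (4.16% of genes), MS7126N1 (3.14%) and MS7126N2 (1.64%) in HepG2, and 0 of 18 for MS8815 against EPZ-6438 (3.07%) and 0 of 17 against MS8815N (2.15%) in WEHI-231. None of these members had an unadjusted p under 0.05 by this test, which leaves out the shared DMSO libraries. With their covariance taken in, still none was called, and an unadjusted p under 0.05 was found for HOXA5 in MS7126 minus C24 and Hoxd4 in MS8815 minus MS8815N. The genes that differ in the first pair then go from 751 to 1692. A degrader and its catalytic inhibitor are not thereby shown to act alike on HOX genes, since the intervals are wide. For HOXA5, MS7126 minus C24 is -0.96 (95% interval -2.19 to 0.27), minus MS7126N1 -0.83 (-2.07 to 0.40) and minus MS7126N2 -0.51 (-1.82 to 0.79) in the authors' deposited tables. For HOXD1 the same differences run from -4.03 to -0.50 with intervals as wide as -10.0 to 1.98. The tightest are for mouse Hoxc4, where MS8815 minus EPZ-6438 is -0.21 (-0.53 to 0.12) and MS8815 minus MS8815N -0.10 (-0.44 to 0.23) in the authors' deposited tables, and for Hoxd4, with -0.29 (-0.72 to 0.13) and -0.36 (-0.79 to 0.06). The 2 compounds of a pair share their DMSO libraries.

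MS7126 was given to both liver lines, for 48 h in HepG2 and 24 h in Huh7, and the values are set side by side without a test. Of the 8 members past a mean of 10 in both, HOXA3 was at -0.53 and -0.25, HOXA4 at -0.38 and -0.60, HOXA5 at -0.88 and -1.19, and HOXA7 at -0.37 and -0.62 in HepG2 and Huh7, from the authors' deposited tables. HOXC9 was at -0.30 and -1.06 and HOXD1 at -5.89 and -0.71, while HOXA10 (0.41 and -0.42) and HOXA11 (-0.14 and 0.21) had opposite signs, neither called, in the authors' deposited tables. HOXC10, the member with the clearest fall in Huh7, had no row in HepG2.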

How the data were processed

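RNA-seq was measured in 36 libraries, 18 groups of 2. STAR 2.4.2 and Salmon are named in the submitters' processing notes; for genome build and strand setting, nothing is given in the sources used here. Per the file headers, each of 13 deposited tables gives, per gene, a mean normalized signal (the authors' baseMean), a log2 fold change with its SE, a test statistic (the deposited score), and the authors' p-values before and after adjustment. The Huh7 shEZH2 table adds deposited estimated counts for each library (totals of 10106193 to 11954322), and 12 hold no values per library.

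The estimated counts were rounded, filtered with edgeR's default and tested by edgeR 4.0.16 (R 4.3.3) with TMM scaling, quasi-likelihood fits and Benjamini-Hochberg adjustment over all genes tested; 20 rows whose symbols had become dates were left out. Other comparisons use the authors' adjusted p under 0.05. Control levels were rebuilt from each mean and fold change, scaled to the table's sum and divided by GENCODE 29 exon length. Differences between tables used a normal test on the 2 fold changes and SEs (scipy 1.17.1), which leaves out the shared DMSO libraries. The edgeR step and the difference test were tested on simulated data. The alternatives were DESeq2 1.42.0, other scaling, no filter, a replicate block, leaving out each library, other thresholds and other lengths.

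Members and gene lists were chosen with earlier results of these data known. Named genes were every member, with full values for those called or, where none was, those past a mean of 100. Up to 4 genes per list were named, save for the flanking genes in the Huh7 knockdown. Intervals are at 95%.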

Additional observations from a re-analysis of the deposited data

Results flagged for a closer look

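The Huh7 shEZH2 comparison and that of the HepG2 libraries labelled shEZH2 gave different fold changes for 3 of 6 HOX genes present in both of the authors' deposited tables, where 51.5% of 11878 genes differed (normal test on the difference, added after the values were seen). The share of HOX genes that differed is near that of all genes. The difference, HepG2 minus Huh7 on the log2 scale, was -2.07 for HOXA4 (95% interval -3.14 to -1.0), 1.08 for HOXA5 (0.40 to 1.76) and -1.31 for HOXD1 (-1.80 to -0.81). EZH2 RNA was on average higher in the HepG2 libraries with that label and lower in Huh7. Cell line, experiment and the direction of EZH2 RNA cannot be told apart in these differences.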

How the results depend on the processing

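In Huh7 the 12 HOX genes called higher and 1 lower by edgeR became 6 and 0 with DESeq2 and 6 and 0 in the authors' deposited table. They were 12 and 1 with DESeq2's size factors in edgeR, and 11 and 1 without the filter. With each library left out in turn the count of higher calls was 9 to 10 and that of lower calls 1 to 1. HOXA3, HOXC6, HOXC8, HOXC11, HOXC12, HOXD1 and HOXD4 kept their call in each alternative that gave an adjusted p, 7 of 13 called members. HOXD4 had no adjusted p by DESeq2. Of these 7, HOXC12 and HOXD4 passed the filter only through the shEZH2 libraries and so had to differ, and their kept calls add no support. The replicate block gave 11 higher and 1 lower, ending the call of HOXA4 (adjusted p = 0.0555 by edgeR); same-numbered libraries did not deviate together (correlation of deviations -0.022), so the numbers are not taken to pair them. With a library left out, the uncalled HOXC4 ranged from -0.22 to 0.000656 (without shEZH2 replicate 1) and the uncalled HOXC10 from -0.046 to 0.00242 (without shControl replicate 2). At an authors' adjusted p under 0.01, HepG2 MS7126 went from 1 called member to 0, and with a 2-fold minimum hairpin 664 went from 2 to 1. No member differed over the 5 compound pairs under any of the 3 alternatives run.

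The log2 ratio of the HOXA to the HOXC median was 0.16 (HepG2 DMSO), 0.90 (HepG2 hairpin control), 0.63 (Huh7 DMSO) and 0.72 (Huh7 hairpin control). With the longest transcript as length it was 0.33, 0.83, 0.50 and 0.79, and as a ratio of sums 3.01, 4.06, -0.74 and -1.03. Read from the hairpin 664 table, the HepG2 hairpin control gave -0.91, where HOXA13 joins the HOXA median. With 2 libraries a group and 12 tables without values per library, no library could be left out elsewhere.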
